A study of Homo sapiens with 12 samples.

Results

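The genes described are 10 death receptor and p53 apoptosis target genes, chosen by name: FAS, TNFRSF10A, TNFRSF10B, TNFRSF10D, EDA2R, AEN, TP53I3, APAF1, CASP8 and ZMAT3. Their Ensembl identifiers were looked up in a count table of 20595 genes, which held 9 of the 10. TNFRSF10D, a decoy receptor for TRAIL, was not analysed here. RNA was sequenced from A549 and H1792, human lung adenocarcinoma lines with MDM2 amplification, where A549 is p53 WT and H1792 is p53 mutant by the series description. Each line received DMSO or the MDM2 inhibitor RG7112, a nutlin-type compound that keeps MDM2 from binding p53, at 1 µM for 48 h. With 3 replicates per treatment this gave 4 groups and 12 samples. The column names of the table carry another dose, 10 times lower, and the dose of the labels was used. Each p53 background is a single cell line, so p53 status and every other difference between A549 and H1792 cannot be told apart. Nothing in the sources used here says that replicates were separate cultures, so p-values measure the spread between these samples, which may be technical.

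Death receptors are cell surface proteins of the TNF receptor superfamily. When FAS ligand or TRAIL binds, they gather an adaptor and the initiator caspase-8, which starts apoptosis from outside the cell. The route from inside the cell runs through mitochondria, cytochrome c and the apoptosome that APAF1 builds. p53 is a transcription factor that binds pairs of a short DNA motif and raises transcription of genes on both routes, and MDM2 marks p53 for degradation and is itself a p53 target.

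The p53 motif is a decamer, and a response element holds a pair of them with up to 13 bases between. RefSeq promoter windows on GRCh38.p14, from 250 bases before to 50 after each start, were searched for the p53 decamer consensus, which is its own reverse complement and so reads alike on both strands. There were 13 windows for 7 of the genes, and 3 of them held a match (23.1%), against 6.63% of all 35116 windows. The stretches around these matches are shown because they are the places in the windows where the letters of the p53 motif occur, with the matching decamer in capitals.
FAS chr10:88991269-88991368 (+): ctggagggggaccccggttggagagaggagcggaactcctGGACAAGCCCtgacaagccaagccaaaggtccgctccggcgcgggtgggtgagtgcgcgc
AEN chr15:88621301-88621330 (+): gagccGGGCTTGCCCgggcatgtgggagct
CASP8 chr2:201257857-201257963 (+): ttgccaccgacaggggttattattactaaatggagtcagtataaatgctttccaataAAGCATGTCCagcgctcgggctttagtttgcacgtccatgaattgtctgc
In FAS the decamer lay at chr10:88991309-88991318, 122 bases before an alternative start, within an intron of the protein-coding transcripts and an exon of processed ones. The decamer TGACAAGCCA, which matches the consensus at 8 of 10 bases, followed it directly. In AEN the decamer lay in the annotated 5′ UTR of a longer transcript and was also followed directly by a decamer with 8 of 10 matching bases, GGGCATGTGG. In CASP8 it lay in an intron, 121 bases before an alternative start, with an 8 of 10 neighbour, ATAAATGCTT, 7 bases before it. A decamer with such a neighbour occurred in 3.42% of all windows. No match was found in the windows of EDA2R, TP53I3, APAF1 and ZMAT3, and TNFRSF10A and TNFRSF10B were not searched. A match is a description of the letters and not evidence of binding.

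TP53I3 holds another kind of p53 sequence, a tandem run of the pentamers TGCCC and TGTCC, which is shown because it sets this gene apart by sequence. The run has 15 copies over 75 bases at chr2:24084343-24084417 (−, GRCh38), in the 5′ UTR of the transcript TP53I3-201 as annotated by GENCODE v29. Its first 30 bases are given in the sense of the gene, all in capitals because every base belongs to the run.
TP53I3 chr2:24084388-24084417 (−): TGCCCTGTCCTGTCCTGCCCTGCCCTGTCC
The search for this run was added after the values were seen. It covered the transcripts of 17982 genes of the table, and the longest such run in any other gene had 9 copies. The number of copies is that of the reference, and those of A549 and H1792 were not analysed here.

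Total counts per sample ranged from 2011916 to 6218825 in A549 and from 2610822 to 5180412 in H1792, and levels are given as CPM, counts relative to the library's total with TMM scaling. At this depth, 3 counts over the 3 libraries of a group stood for 0.217 to 0.316 CPM, which covers counting error only. The checks of the treatment were MDM2 and CDKN1A, the latter a cell cycle inhibitor and p53 target. In A549, MDM2 was at 3.12, 9.53 and 12.9 CPM with DMSO and at 72.6, 58.4 and 75.8 CPM with RG7112 (log2 fold change 3.00 ± 0.45 SE, adjusted p = 0.0102 by edgeR). In H1792 it was at 6.33, 11.98 and 15.2 CPM with DMSO and at 8.51, 11.4 and 10.7 CPM with RG7112 (log2 fold change -0.050 ± 0.35, adjusted p = 0.928). MDM2 thus rose in the p53 WT line, where the groups did not overlap, and did not pass the test in the mutant line. CDKN1A was at 44.9, 42.4 and 24.1 CPM in A549 with DMSO and at 202, 189 and 939 CPM with RG7112, and it also rose (3.58 ± 0.70, adjusted p = 0.0252). Replicate 3 lay far above the other treated libraries, and without replicate 3 of both treatments the log2 fold change was 2.18 (adjusted p = 0.00172). In H1792 its log2 fold change was 0.15 ± 0.69 (adjusted p = 0.882). The labelled tissue was checked by 6 epithelial markers, whose summed CPM was 14440 to 18920 with DMSO and 17060 to 24000 with RG7112 in A549, and 1814 to 2181 with DMSO and 1067 to 1334 with RG7112 in H1792. Keratins made up nearly all of each sum. The other markers of this list were low in places, with EPCAM at 1.39 CPM or less in A549 and CDH1 at 1.055 CPM or less in H1792. Among the 6 markers the keratin KRT19 rose in A549 (1.27 ± 0.17, adjusted p = 0.00602) and KRT18 fell in H1792 (-1.04 ± 0.14, adjusted p = 0.00437), and the response was higher in A549 for KRT19 (1.93), KRT7 (1.21) and KRT8 (0.77). Lung alveolar markers summed to 6.23 CPM or less in every sample, and endothelial markers to 1.90 CPM or less. Leukocyte markers summed to 34.3 to 58.6 CPM with DMSO and 57.5 to 121 CPM with RG7112 in A549, and to 9.91 to 18.7 and 7.48 to 11.2 CPM in H1792. One of them, CD68, had a response higher in A549 by 2.18 (adjusted p = 0.0384). Fibroblast markers, chiefly the collagen genes COL1A1 and COL1A2, summed to 1.90 to 9.19 CPM in A549 and 1117 to 1429 CPM in H1792. The part of these differences, between the lines and with treatment, in the results was not tested. Replicate 3 of both A549 treatments stood apart from the other A549 libraries on a principal component with 25.6% of the variance (-51.6 and -43.4, against 9.41 to 44.9). Values of the set that moved by over 1.5 times or changed their call without both of these libraries are given with and without them. Of the other genes, only MDM2, CDKN1A, TNFRSF25, BIRC3, BBC3 and TP53I11 were looked at without them, in A549. The rest, CD68, TRADD and PIDD1 among them, are given with all libraries only.

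In A549, FAS and TP53I3 rose with RG7112, by 3.56-fold and 4.26-fold. In H1792, ZMAT3 was the 1 gene of the set called, 2.54-fold higher, and TP53I3 was lower without reaching the fold threshold. Calls required a Benjamini-Hochberg adjusted p under 0.05 over all genes tested in that cell line and an absolute log2 fold change over 1. In A549 all 9 genes passed the expression filter, 2 were called higher and none lower, while 3.18% of the 10739 genes tested were called higher and 3.01% lower. In H1792, 7 passed the filter, 1 was called higher and none lower, against 10.3% and 4.34% of 9914 genes. Without TMM scaling the split of all called genes in H1792 moved from 1020 higher and 430 lower to 1541 and 249. In bulk RNA, a change in the cells that express a gene and a change in RNA per cell cannot be told apart. The median log2 fold change of the tested genes of the set was 0.72 in A549 and 0.48 in H1792, where the medians of all tested genes were -0.015 and 0.0096. The median in H1792 is the value of CASP8, which was not called and was 0.11 with a correction for GC content. The median of the set with that correction was not computed. The plot of CPM by library shows every value behind these counts.

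**Figure D1:**
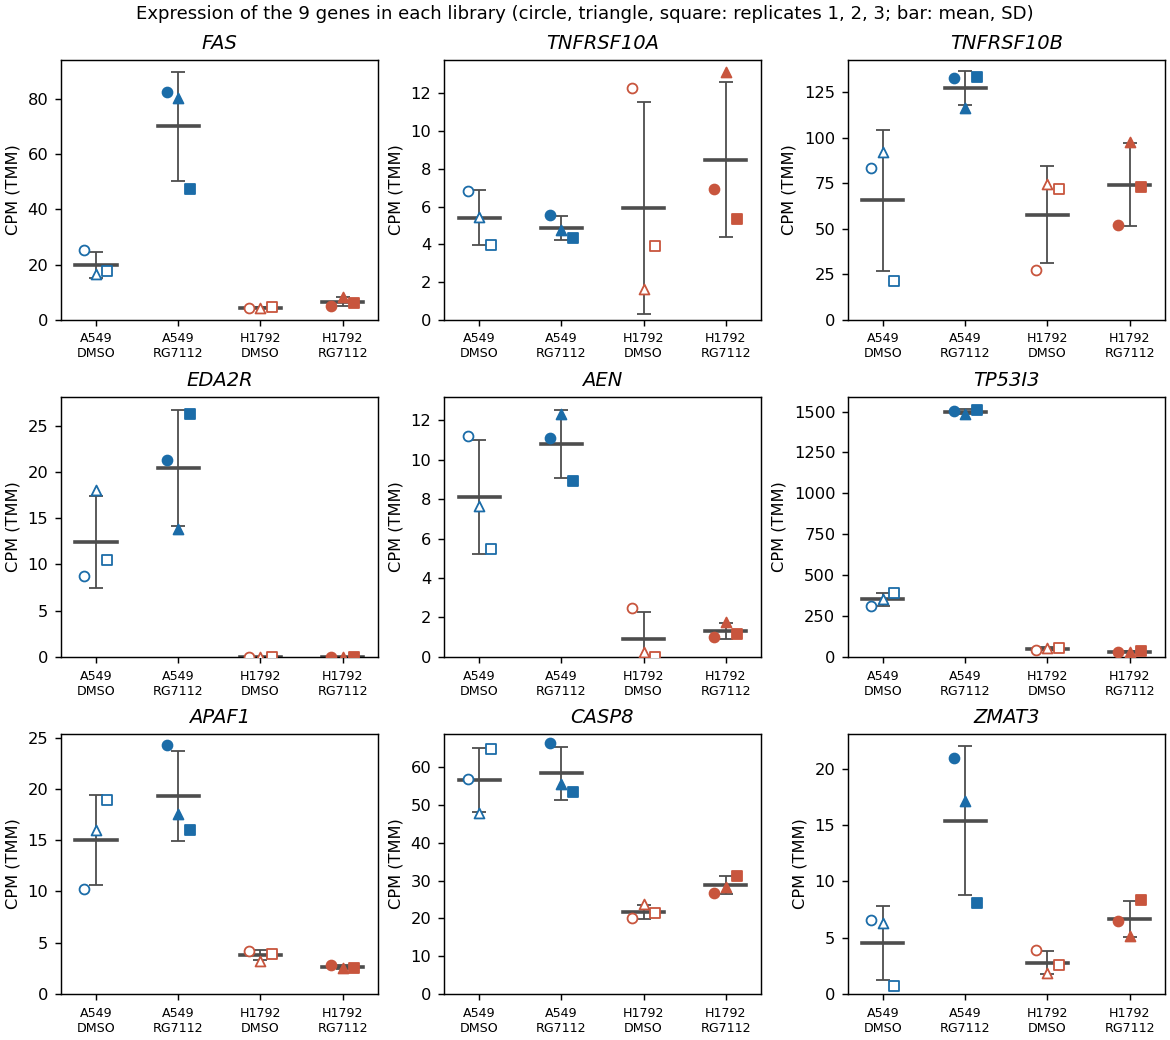
CPM (TMM-scaled, linear axes from 0) of the 9 genes in each of the 12 libraries, with open symbols for DMSO and filled symbols for RG7112. Circles, triangles and squares are replicates 1, 2 and 3, and bars give the mean and SD of 3 replicates. TP53I3 in A549 stood at 311 to 392 CPM with DMSO and at 1482 to 1511 CPM with RG7112, while EDA2R was at 0 in every H1792 library.

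Among the receptors, FAS (chr10:88990582-89015785, +), which binds FAS ligand, was at 25.2, 16.5 and 17.6 CPM in A549 with DMSO (19.8 ± 4.74, SD, n = 3). With RG7112 it was at 82.7, 80.3 and 47.4 CPM (70.1 ± 19.7). Every RG7112 library lay above every DMSO library, with replicate 3 the lowest of the treated ones. The log2 fold change was 1.83 ± 0.29 (SE, edgeR adjusted p = 0.0121), and 2.04 with a correction for GC content (adjusted p = 0.00224). Leaving out replicate 3 of both treatments gave 2.00 (adjusted p = 0.0121). The call was lost without DMSO replicate 2 (1.71, adjusted p = 0.0635) and without RG7112 replicate 1 (1.69, adjusted p = 0.053). In H1792, FAS was at 4.22, 4.38 and 4.79 CPM with DMSO and at 5.16, 8.34 and 6.04 CPM with RG7112. The groups did not overlap in H1792 either, but the difference did not pass the test (0.63 ± 0.32, adjusted p = 0.166). FAS is one of the AT-rich genes of the set (42.0% GC), and with the GC correction its H1792 value was 0.19 (adjusted p = 0.690). FAS overlaps ACTA2 on the opposite strand, as some other genes of the set overlap a neighbour. Overlap was taken from the start and end of each gene, and shared exons were not checked. Counts came from transcript sequences, and whether the counting used strand is not given in the sources used here. Reads from exons that such a pair may share cannot be told apart with certainty.

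TNFRSF10B (chr8:23020133-23069179, −), the TRAIL receptor also called DR5, was at 83.5, 91.9 and 21.1 CPM in A549 with DMSO and at 132, 116 and 133 CPM with RG7112. The groups did not overlap, and DMSO replicate 3 was far below the other DMSO libraries. The log2 fold change of 0.96 ± 0.48 did not pass the test (edgeR adjusted p = 0.281), and without replicate 3 of both treatments it was 0.51 (adjusted p = 0.0623). In H1792 it was at 27.1, 74.4 and 71.8 CPM with DMSO and at 52.1, 97.5 and 72.9 CPM with RG7112, with overlapping groups (0.44 ± 0.40, adjusted p = 0.424).

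TNFRSF10A (chr8:23190452-23225126, −), the other death-inducing TRAIL receptor, also called DR4, was at 6.85, 5.45 and 3.98 CPM in A549 with DMSO and at 5.56, 4.75 and 4.33 CPM with RG7112. The groups overlapped, and the log2 fold change was -0.14 ± 0.37 (edgeR adjusted p = 0.864), or -0.22 without replicate 3 of both treatments (adjusted p = 0.784). In H1792 the DMSO libraries spread widely, at 12.3, 1.61 and 3.92 CPM, and the RG7112 libraries were at 6.96, 13.1 and 5.34 CPM. Here too the groups overlapped (0.60 ± 0.75, adjusted p = 0.565). Both TRAIL receptor genes overlap other annotated genes on the opposite strand, RHOBTB2 among them for TNFRSF10B.

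EDA2R (chrX:66595637-66639298, −), the receptor for the A2 form of ectodysplasin and a p53 target, was detected in A549 and in no library of H1792. In A549 it was at 8.72, 18.04 and 10.4 CPM with DMSO and at 21.3, 13.8 and 26.3 CPM with RG7112. The groups overlapped through replicate 2, and the log2 fold change of 0.72 ± 0.37 did not pass the test (edgeR adjusted p = 0.2998), and without replicate 3 of both treatments it was 0.40 (adjusted p = 0.619). All 6 H1792 libraries had 0 counts. Set against 3 counts over a group, the A549 mean was at least 39.2-fold higher with DMSO and at least 94.2-fold higher with RG7112. A response in H1792 was not measurable at this depth.

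Of the genes that act inside the cell, CASP8 (chr2:201233443-201287711, +), the initiator caspase of death receptors, was at 57.0, 47.8 and 64.9 CPM in A549 with DMSO and at 66.4, 55.6 and 53.4 CPM with RG7112. The groups overlapped, and the log2 fold change was 0.052 ± 0.19 (edgeR adjusted p = 0.902), or 0.24 without replicate 3 of both treatments (adjusted p = 0.422). In H1792 it was at 20.0, 23.7 and 21.3 CPM with DMSO and at 26.8, 28.2 and 31.4 CPM with RG7112, without overlap. The difference of 0.48 ± 0.16 fell just outside the test (adjusted p = 0.0517), and with the GC correction it was 0.11 (adjusted p = 0.632).

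APAF1 (chr12:98645141-98735433, +), the scaffold of the apoptosome, was at 10.3, 16.0 and 18.9 CPM in A549 with DMSO and at 24.3, 17.6 and 16.0 CPM with RG7112. The groups overlapped (log2 fold change 0.36 ± 0.31, edgeR adjusted p = 0.552), and without replicate 3 of both treatments the value was 0.68 (adjusted p = 0.257). In H1792 it was at 4.22, 3.23 and 3.92 CPM with DMSO and at 2.84, 2.49 and 2.55 CPM with RG7112. These groups did not overlap, and the log2 fold change was -0.44 ± 0.34 (adjusted p = 0.350). With the GC correction it was -0.91 (adjusted p = 0.0967). APAF1 had the lowest GC content of the set (40.9%).

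TP53I3 (chr2:24077433-24085861, −), a quinone oxidoreductase-like p53 target also called PIG3, had the largest log2 fold change of the 9 genes in A549 as reported. With the GC correction FAS was at 2.04 and TP53I3 at 1.98. With libraries left out, ZMAT3 reached 2.11 and FAS 2.06, while TP53I3 went down to 2.00, so the order was not secure. In A549 TP53I3 was at 311, 353 and 392 CPM with DMSO (352 ± 40.5) and at 1503, 1482 and 1511 CPM with RG7112 (1499 ± 14.9). Every treated library lay far above every DMSO library, and the treated libraries lay close together. The log2 fold change was 2.09 ± 0.13 (edgeR adjusted p = 0.000349). In H1792 it was at 41.9, 55.8 and 55.3 CPM with DMSO and at 31.5, 32.5 and 33.2 CPM with RG7112. The groups did not overlap and the order was opposite to that in A549. The log2 fold change was -0.58 ± 0.15 (adjusted p = 0.0274), past the p threshold and short of the fold threshold. With the GC correction it was -0.34 (adjusted p = 0.145). TP53I3 overlaps FAM228B on the opposite strand.

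AEN (chr15:88621296-88632282, +), a p53-induced nuclease that cleaves DNA in apoptosis, was at 11.2, 7.66 and 5.47 CPM in A549 with DMSO and at 11.1, 12.4 and 8.94 CPM with RG7112. The groups overlapped (log2 fold change 0.42 ± 0.36, edgeR adjusted p = 0.547). In H1792 it had 7, 1 and 0 counts with DMSO and 4, 10 and 5 counts with RG7112, below the expression filter. By an exact permutation test, two-sided and on log2 of CPM with 1 added, p was 0.4 there, where 3 against 3 allows no p below 0.1.

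ZMAT3 (chr3:179017223-179072279, −), a zinc finger RNA-binding p53 target also called WIG1, was at 6.54, 6.30 and 0.745 CPM in A549 with DMSO and at 21.0, 17.1 and 8.12 CPM with RG7112. The groups did not overlap, and replicate 3 was the lowest in both. The log2 fold change of 1.76 ± 0.72 did not pass the test (edgeR adjusted p = 0.191). Without replicate 3 of both treatments it was 1.59 and was called (adjusted p = 0.0291). In H1792 it was at 3.87, 1.84 and 2.61 CPM with DMSO and at 6.45, 5.15 and 8.36 CPM with RG7112, also without overlap. ZMAT3 rose there by 1.34 ± 0.41 on the log2 scale (adjusted p = 0.0448). The call was lost in 11 of 17 alternatives, including DESeq2 (1.35, adjusted p = 0.0748), and without H1792 DMSO replicates 2 (1.06) and 3 (1.32) or any 1 of the RG7112 replicates (1.37, 1.498 and 1.13). The DMSO libraries of H1792 held 6 to 11 counts of ZMAT3.

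**Figure D2:**
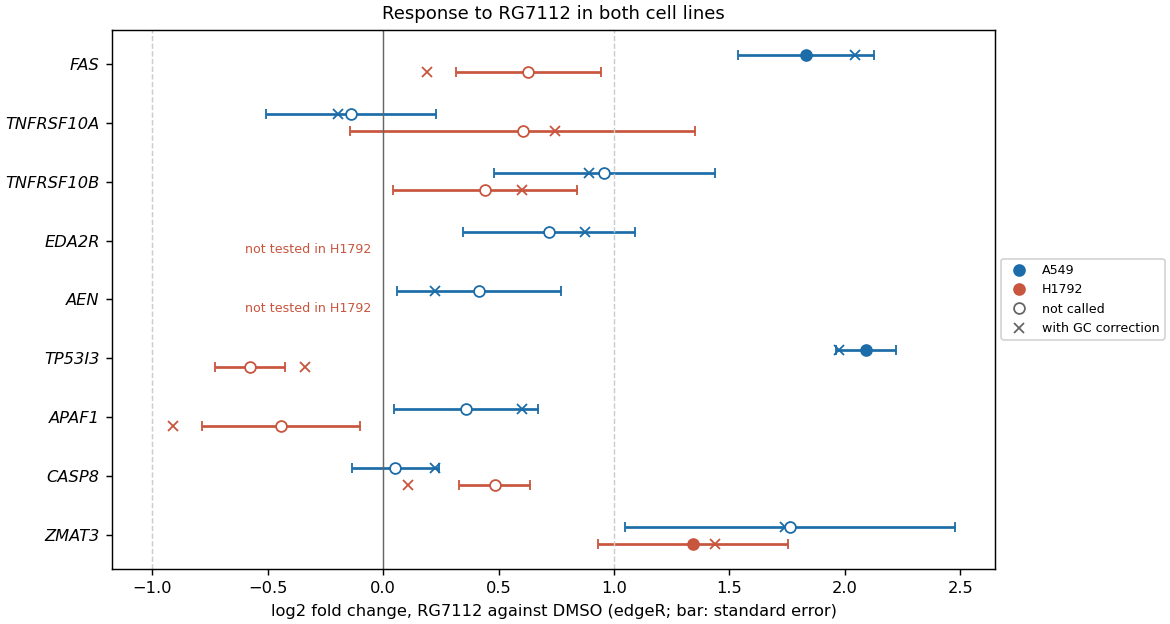
Log2 fold change of RG7112 against DMSO (x axis) for each gene in A549 (blue) and H1792 (red), with bars for the standard error and filled points for called genes. Crosses give the value with the GC correction, and dashed lines mark the fold threshold. FAS and TP53I3 were called in A549 (1.83 and 2.09) and ZMAT3 in H1792 (1.34), and the crosses of FAS and CASP8 in H1792 lay nearer to 0 (0.19 and 0.11).

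Groups of the 2 treatments did not overlap, with RG7112 higher, for FAS, TNFRSF10B, TP53I3 and ZMAT3 in A549, which is 4 of 9, and for FAS, CASP8 and ZMAT3 in H1792, which is 3 of 7 tested. Among all tested genes this held for 16.2% in A549 and 24.8% in H1792. With RG7112 lower, they did not overlap for TP53I3 and APAF1 in H1792, which is 2 of 7, against 28.5% of all tested genes. In A549 this held for none of the 9 genes, but the share of all tested genes was not computed there, so this count cannot be judged. In both lines fold changes followed GC content across all genes, as a description with Spearman's rho of 0.25 in A549 and -0.45 in H1792, where genes are not independent replicates.

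Whether the response differed between the lines was asked with an interaction term fitted to the 12 samples, for which a call needed only an adjusted p under 0.05. TP53I3 and FAS passed, both with the higher response in A549, which is 2 of 8 genes that could be tested and none with the lower response. EDA2R could not be tested, since H1792 had no counts. Of all 11666 genes tested, 10.4% passed with the higher and 11.4% with the lower response in A549 (1210 and 1329 genes, or 645 and 2157 without TMM scaling). For TP53I3 the difference in log2 fold change was 2.75 ± 0.17 (edgeR adjusted p = 5.20e-06). For FAS it was 1.27 ± 0.41 (adjusted p = 0.0477), and this call was lost in 14 of 23 alternatives, with values of 0.88 to 1.88 in all 23. For APAF1 it was 0.87 ± 0.43 (adjusted p = 0.165), and 1.53 with the GC correction (adjusted p = 0.0323). For CASP8 it was -0.35 ± 0.24 (adjusted p = 0.308), which turned to 0.14 with the GC correction. ZMAT3 had 0.49 ± 0.91 (adjusted p = 0.740), TNFRSF10B 0.60 ± 0.69 (adjusted p = 0.569), TNFRSF10A -0.67 ± 0.87 (adjusted p = 0.614) and AEN -0.18 ± 0.97 (adjusted p = 0.927). Without replicate 3 of both A549 treatments the difference was 0.14 for TNFRSF10B, -0.18 for CASP8, 0.30 for ZMAT3 and -0.29 for AEN, none of which passed. The errors are wide, so a like response of these genes in both lines is not shown.

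**Figure D3:**
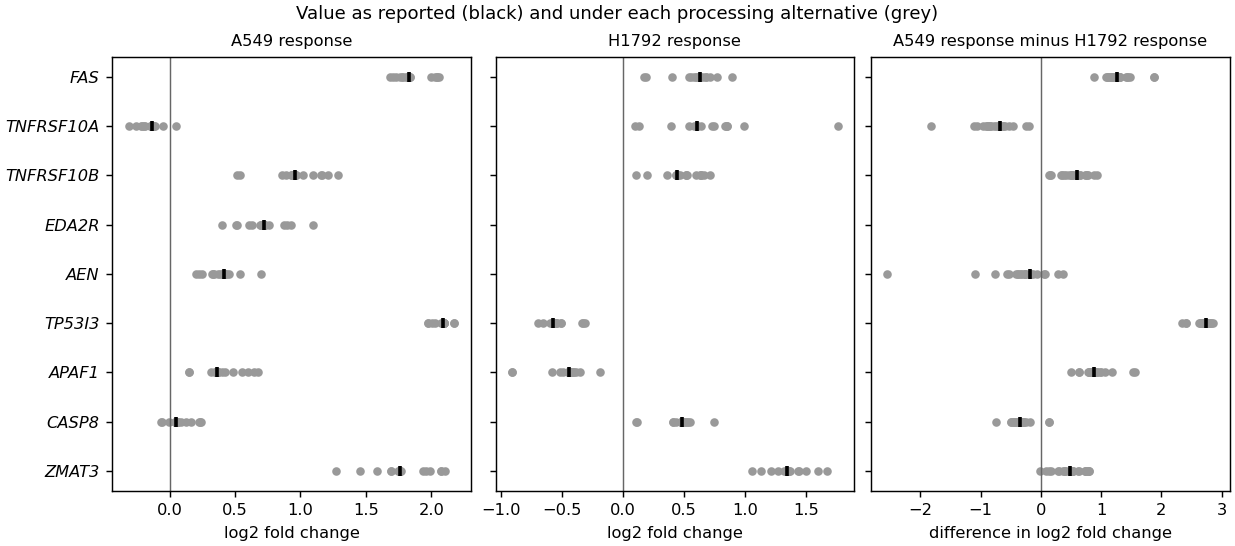
Log2 fold change in A549 (left), in H1792 (middle) and their difference (right) for each gene, with a black bar for the value as reported and grey points for each processing alternative. The TP53I3 points stayed between 1.98 and 2.18 in A549 and between 2.35 and 2.86 for the difference, while those of TNFRSF10A in H1792 ran from 0.099 to 1.76.

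Before treatment, 5 of 8 testable genes were higher in A549 than in H1792 and none lower, where 20.4% of 11666 genes were called higher (2376 genes, with 1697 lower, or 2959 and 1242 without TMM scaling). These were AEN, for which the H1792 libraries held 7, 1 and 0 counts (log2 difference 3.16 ± 0.77, edgeR adjusted p = 0.00576, and 5.51 without H1792 DMSO replicate 1), TP53I3 (2.79 ± 0.13, adjusted p = 4.56e-08), FAS (2.14 ± 0.30, adjusted p = 0.000170), APAF1 (2.00 ± 0.31, adjusted p = 0.000302) and CASP8 (1.38 ± 0.17, adjusted p = 6.23e-05). EDA2R, with its lower bound above, comes beside them. ZMAT3 (0.73 ± 0.67, adjusted p = 0.396), TNFRSF10B (0.18 ± 0.49, adjusted p = 0.784) and TNFRSF10A (-0.12 ± 0.62, adjusted p = 0.892) did not pass. Without replicate 3 of both A549 treatments, ZMAT3 passed as well (1.23, adjusted p = 0.0234), while TNFRSF10B (0.60) and TNFRSF10A (0.064) still did not.

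Per kb of exonic length, TP53I3 had the highest level in A549 with DMSO (152 ± 17.5 CPM per kb, SD, n = 3). TNFRSF10B (12.7 ± 7.497), CASP8 (7.81 ± 1.18), FAS (4.65 ± 1.12) and EDA2R (3.47 ± 1.39 CPM per kb) followed. APAF1 (1.90 ± 0.55), TNFRSF10A (1.84 ± 0.49), AEN (1.35 ± 0.48) and ZMAT3 (0.469 ± 0.340 CPM per kb) were lowest. Between neighbours in this order the libraries overlapped, except that TP53I3 stood clear of TNFRSF10B, CASP8 of FAS, EDA2R of APAF1 and AEN of ZMAT3. In H1792 with DMSO the order began with TP53I3 (22.0 ± 3.41) and TNFRSF10B (11.2 ± 5.16 CPM per kb), followed by CASP8 (3.00 ± 0.26), TNFRSF10A (2.02 ± 1.91), FAS (1.05 ± 0.069), APAF1 (0.479 ± 0.064), ZMAT3 (0.288 ± 0.106) and AEN (0.149 ± 0.226), with EDA2R at 0. Here CASP8 overlapped TNFRSF10A, TNFRSF10A overlapped FAS, ZMAT3 overlapped AEN and AEN shared the value 0 with EDA2R in 1 library, and the other neighbours stood clear of each other. With RG7112, TP53I3 reached 648 ± 6.46 CPM per kb in A549 and FAS reached 16.5 ± 4.64.

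**Figure D4:**
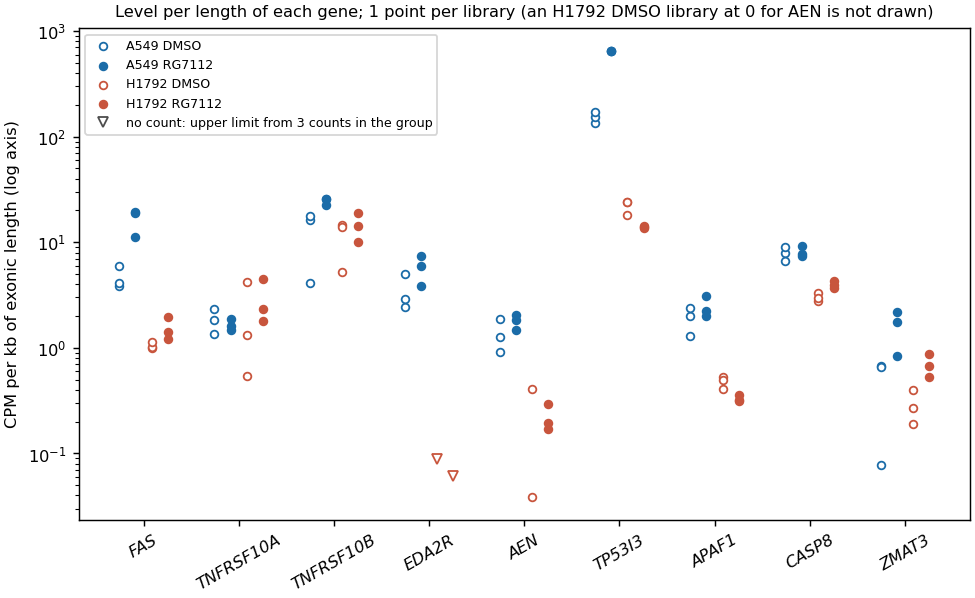
CPM per kb of exonic length (log axis) of each gene, with 1 point per library, open for DMSO and filled for RG7112, in blue for A549 and red for H1792. Triangles give the upper limit for EDA2R in H1792, where no count was seen, and a library at 0 for AEN is not drawn. TP53I3 was highest in A549 (152 CPM per kb with DMSO), and the DMSO libraries of both TRAIL receptors overlapped between the lines.

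The other genes of the pathways were taken from fixed lists. Their counts stand beside the shares of all tested genes, 3.18% called higher and 3.01% lower in A549. In H1792 these shares were 10.3% and 4.34%, and for the interaction 10.4% and 11.4%. Unlike those of the set, their calls were not checked under the processing alternatives, the GC correction among them. The exceptions are TNFRSF25, BIRC3, BBC3 and TP53I11 in A549, which were also called without replicate 3 of both treatments. Of 5 ligands, FASLG and LTA had no count in any sample, TNFSF10, which encodes TRAIL, had 0 to 3 counts per library, and TNF, like FADD, TNFRSF6B and PERP of the other lists, was not analysed here. EDA, the ectodysplasin gene, was at 1.74 to 5.56 CPM in A549 (0.74 ± 0.43, edgeR adjusted p = 0.357) and, like EDA2R, at 0 in all H1792 libraries. Among other death and decoy receptors, 3 of 7 were tested in each line. TNFRSF25 (DR3) rose in A549 (1.67 ± 0.30, adjusted p = 0.0182), and TNFRSF21 (DR6) rose in H1792 (1.12 ± 0.21, adjusted p = 0.00974). Both responses differed between the lines, by 3.07 for TNFRSF25 (adjusted p = 0.0146) and by -1.08 for TNFRSF21 (adjusted p = 0.0168).

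Of the adaptors and regulators of the receptor complex, none of 6 tested in A549 and none of 7 tested in H1792 was called. TRADD, an adaptor of TNF receptor 1 and DR3, had a response higher in A549 by 1.83 (edgeR adjusted p = 0.0365), from 0.69 in A549 and -1.06 in H1792, neither of which passed. CFLAR, the caspase-8 inhibitor FLIP, was at 0.20 ± 0.17 in A549 (adjusted p = 0.542) and 0.0049 ± 0.20 in H1792 (adjusted p = 0.988). None of the apoptosome and effector caspase genes was called, of 6 tested in A549 and 7 in H1792. CYCS, which encodes cytochrome c, was at -0.92 ± 0.21 in A549 (adjusted p = 0.0402), short of the fold threshold, and its response was lower in A549 than in H1792 (-0.93, adjusted p = 0.0154).

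Among 5 caspase inhibitors and their antagonists, BIRC3 (cIAP2) rose in A549 (1.26 ± 0.30, edgeR adjusted p = 0.0496). In H1792, BIRC2 (cIAP1) rose (1.02 ± 0.19, adjusted p = 0.00936) and XIAP fell (-2.13 ± 0.61, adjusted p = 0.0373). XIAP was at 5.98, 15.4 and 25.7 CPM with DMSO and at 5.41, 2.49 and 2.32 CPM with RG7112 in H1792, so that a wide spread among DMSO libraries lies behind its value. The response of BIRC2 differed between the lines (-1.06, adjusted p = 0.0235), while for XIAP (1.99, adjusted p = 0.0790) and BIRC3 (1.47, adjusted p = 0.0731) the difference did not pass.

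Of 14 other p53 targets of apoptosis, 12 were tested in A549 with 2 called higher, and 9 in H1792 with none called. Among all tested genes 3.18% were called higher in A549, and 10.3% higher and 4.34% lower in H1792. BBC3, which encodes the BH3-only protein PUMA, was at 27.4, 25.9 and 23.4 CPM in A549 with DMSO and at 74.3, 89.3 and 95.6 CPM with RG7112 (1.76 ± 0.18, edgeR adjusted p = 0.00221). TP53I11 also rose in A549 (1.24 ± 0.16, adjusted p = 0.00499). The response was higher in A549 for BBC3 (2.61), BAX (1.00), PIDD1 (1.34), PHLDA3 (1.97) and TP53I11 (1.46), and lower for SIVA1 (-1.64), which is 5 and 1 of 11 tested. Of all genes tested for the interaction, 10.4% passed with the higher and 11.4% with the lower response in A549. PMAIP1, which encodes NOXA, was at -0.060 ± 0.39 in A549 (adjusted p = 0.947) and 0.84 ± 0.27 in H1792 (adjusted p = 0.0540). The p53 targets of the set and of this list thus had both called and uncalled genes in A549. The median log2 fold change of this list was 0.57 in A549 and -0.13 in H1792.

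**Figure D5:**
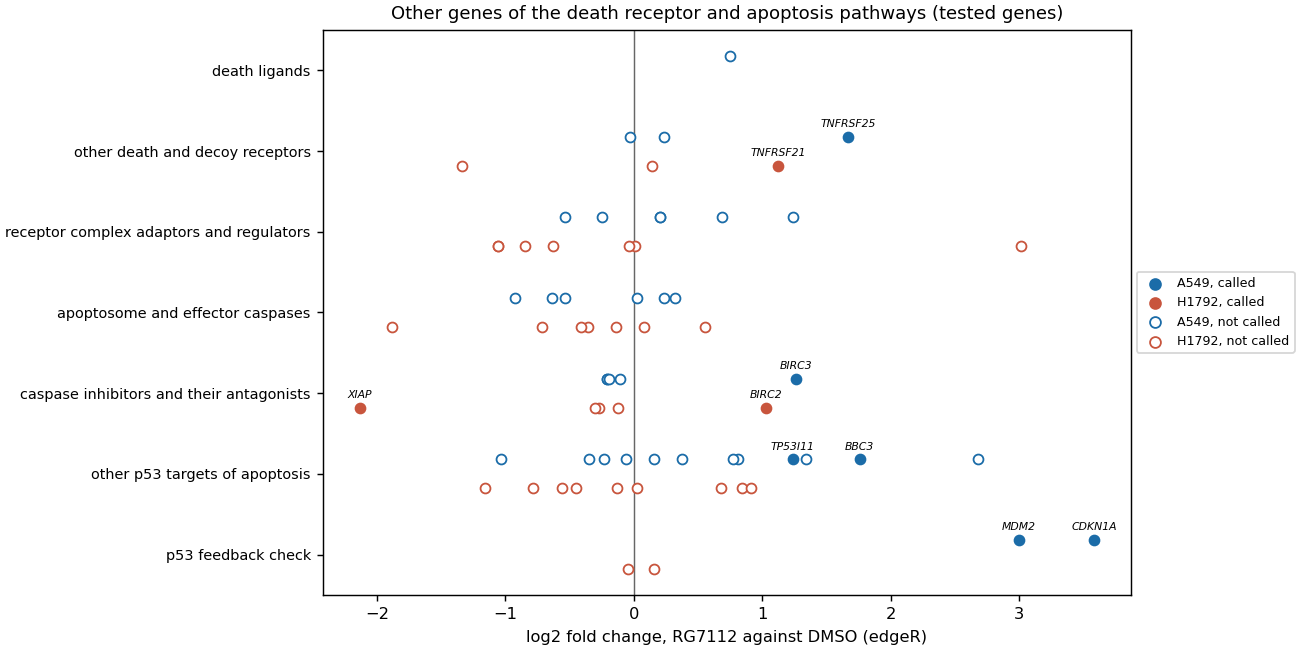
Log2 fold change of RG7112 against DMSO (x axis) of the tested genes in each pathway list (rows), in A549 (blue) and H1792 (red), with filled and named points for called genes. In A549 the called points all lay to the right (TNFRSF25, BIRC3, BBC3, TP53I11, MDM2 and CDKN1A), and in H1792 TNFRSF21 and BIRC2 lay to the right and XIAP to the left.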

How the data were processed

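RNA from A549 and H1792 cells (DMSO or RG7112 at 1 µM, 48 h, 3 replicates each) was selected for poly-A and sequenced from both ends with a directional kit. Sources differ on the read length and on the medium of A549, and the paper's RNA-seq sentence gives the p53 status of the lines the other way round from its other text. The authors ran kallisto 0.45.0 (version also in the submitters' processing notes) on the Ensembl GRCh38 transcriptome and added transcripts up to genes. They deposited estimated counts per gene (expected counts), whole numbers without normalization, so no rounding was needed. All 12 columns were used.

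Symbols, positions, lengths and GC content came from GENCODE v29, which holds 18011 of the 20595 identifiers. R 4.3.3 and edgeR 4.0.16 were used: filterByExpr (minimum count 10, minimum total 15), TMM, and a robust quasi-likelihood F test per cell line, with all 12 samples for the interaction and for the lines in DMSO. Standard errors are the log2 fold change divided by the square root of F. Printed CPM use TMM factors of all 12 samples. Alternatives were DESeq2 1.42.0, limma-trend (limma 3.58.1, prior count 2), other scalings and filters, GC correction (loess per sample, span 0.5), a replicate block, thresholds and left-out samples. The procedure was tested on simulated counts for the A549 comparison only, with less spread than in these data. Changes were placed in genes above a count minimum, so low counts, H1792 and the interaction were not covered. The members, lists and tests were chosen with earlier results of these data known. Every member is named, and other genes of the pathway and marker lists are named where called in either line or in the interaction, or, after their values were seen, to show an uncalled one. A wider promoter scan was planned, and the RefSeq windows were used in its place. Of the lists, 1 gene is not reported here.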

Additional observations from a re-analysis of the deposited data

Results flagged for a closer look

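The responses of TP53I3 and FAS to RG7112 differed between the cell lines by the interaction test. For TP53I3 the log2 response was 2.75 higher in A549, with all 3 treated libraries above DMSO in A549 and all 3 below it in H1792, and the call was kept in 23 of 23 alternatives. For FAS it was 1.27 higher in A549, where treated libraries lay above DMSO in both lines, and the call was kept in 9 of 23 alternatives. No sample was tested as an outlier, since groups held 3 samples.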

How the results depend on the processing

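The calls of TP53I3 were kept in 19 of 19 alternatives in A549 and 23 of 23 for the interaction, and that of FAS in A549 in 16 of 19. The 5 calls between the lines in DMSO were kept wherever these genes were tested, with AEN at 2.60 to 5.51. At an adjusted p under 0.01 the genes of the set called higher were 1 in A549, 0 in H1792 and 1 for the interaction. In H1792 the count was also 0 with DESeq2, without a filter on low counts and with all 12 samples in one fit. It was 0 as well with the replicate block, alone or with GC correction. With at least 10 counts in every sample it was 0 of 4 genes tested, and ZMAT3 was not tested there. Without a fold threshold 1 gene (TP53I3) was called lower in H1792. For the interaction 1 was called higher with library size only (and 1, CASP8, lower), without a filter, with at least 10 counts in every sample and with the replicate block. With GC correction alone 3 were called higher, APAF1 among them. In DMSO 3 of the 4 genes left were called with at least 10 counts in every sample. Leaving out 1 replicate, or replicate 3 of both A549 treatments, gave 1 to 3 calls in A549, 0 to 1 in H1792, 1 to 2 for the interaction and 5 to 6 in DMSO. Over all genes tested, alternatives gave 135 to 473 genes higher (342 as reported) and 144 to 461 lower (323) in A549, 375 to 1752 (1020) and 218 to 1632 (430) in H1792, 388 to 1634 (1210) and 460 to 2157 (1329) for the interaction, and 1120 to 2981 (2376) and 818 to 2565 (1697) in DMSO.

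Every change of sign was in a gene that was not called. With library size only, CASP8 in A549 was -0.0024, and TNFRSF10A between the lines in DMSO was 0.13, where this scaling moved the median of all genes by -0.067 in A549, 0.26 in H1792, -0.39 for the interaction and 0.26 in DMSO. TNFRSF10A in DMSO was also 0.24 with limma-trend and 0.0096 with the replicate block. The interaction of CASP8 was 0.14 with GC correction, with and without the block (0.14 and 0.14). With libraries left out, values that changed sign ran from -0.062 to 0.17 for CASP8 in A549 (0.24 without replicate 3 of both treatments), from -0.31 to 0.045 for TNFRSF10A in A549, from -0.60 to 1.02 for TNFRSF10A in DMSO (0.064 without replicate 3 of both A549 treatments, an alternative added after the data were seen), from -0.17 to 0.60 for TNFRSF10B in DMSO, and, for the interaction, from -0.013 to 0.79 for ZMAT3 and from -2.55 to 0.36 for AEN. The cause of these changes was not tested.

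Deviations of same-numbered samples correlated by 0.067 to 0.29 in A549, against a mean of -0.081 for differently numbered ones. Deviations were taken from the mean of each group of 3, so the values of same-numbered and differently numbered samples are tied. The latter are therefore no independent baseline. Same-numbered A549 samples were somewhat alike, most for replicate 3 (0.29, against 0.15 and 0.067), whose libraries stood apart above. In H1792 the correlations were -0.039 to 0.00054, against a mean of 0.0094, and showed no pairing by replicate number. The replicate block kept both A549 calls (FAS adjusted p = 0.0183, TP53I3 0.00260) and lost ZMAT3 in H1792 (0.0852) and FAS in the interaction (0.0522). Depth limits several genes in H1792, where libraries held 0 to 10 counts of AEN, 6 to 36 of ZMAT3 and 9 to 14 of APAF1. They held 11 to 47 counts of FAS and 7 to 74 of TNFRSF10A.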

Other observations

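The 5 genes outside the set whose log2 CPM over the 12 samples was most like the mean of the 9 standardised genes of the set were TANC2 (Pearson's r 0.985), INCA1 (0.984), TIMP2 (0.982), ACO1 (0.979) and TRAF4 (0.979). The 12 samples fall into 2 cell lines, and these values are a description without a test.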
